A study of Mus musculus with 6 samples.

Results

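ATF4 ChIP-seq in mouse embryonic fibroblasts (MEFs, cells grown out of mouse embryos) was used to describe the sites that ATF4 occupied in WT cells both with and without leucine, but that were not listed in cells lacking the kinase GCN2. A member site was a peak of the WT +Leu list whose center lay 300 bp or less from the center of a WT -Leu peak and more than 300 bp from every peak center of both GCN2 KO lists. The members were thus chosen by the measured peak calls of all 4 lists, and their number is fixed by that rule and is not a finding. There were 228 member sites among 4850 WT +Leu peaks, the 4.70% of that list that met the rule (95% Wilson interval 4.14 to 5.33). Of that list, 6.35% had a WT -Leu peak and 2.78% a GCN2 KO peak within the same distance. The members made up 228 of the 308 peaks that WT cells shared between +Leu and -Leu (74.0%, 68.9 to 78.6). The remaining 80 WT-shared sites had a GCN2 KO peak within 300 bp and served for comparison.

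WT and GCN2-/- MEFs of strain 129S6/SvEvTac were kept for 24 h in complete DMEM (+Leu) or in DMEM without leucine (-Leu), and chromatin was precipitated with the ATF4 antibody sc-200. Each of the 4 lists came from 1 library made of pooled chromatin, and conditions were therefore not tested against each other. Intervals below are 95% Wilson intervals of shares, 95% Newcombe intervals of differences between shares, or 95% normal intervals of differences pooled over score bands. They cover counting error only. Where a count was 0, the share it allows is given as 3 counts of the total, with the upper limit of the Wilson interval beside it. Peak lists do not report the level of GCN2, so its loss cannot be checked here, and they give no sequencing depth. Absence of a peak from the GCN2 KO lists therefore cannot be told apart from a shallower or weaker library. Those lists held 3566 (+Leu) and 2672 (-Leu) peaks, and 32 and 13 of these reached a score of 100. The peak score is the number the authors deposited for each peak, in which a higher value means a stronger call. It was not normalized between libraries and is given as a description.

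GCN2 is a kinase that is activated by uncharged tRNA when an amino acid runs short. It phosphorylates the translation factor eIF2α, which lowers general protein synthesis and raises translation of the ATF4 mRNA. ATF4 is a bZIP transcription factor that pairs with members of the C/EBP family and binds composite C/EBP-ATF response elements near genes for amino acid uptake, synthesis and tRNA charging.

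Sequences under the member sites are shown first, since the rule did not use them. The letters TGATGCAA, a form of the C/EBP-ATF response element TGATGNAA, were searched on both strands within 50 bp of each WT +Leu peak center in the GRCm38 reference, the assembly that mm10 names. Capitals mark the element, each line reads 5′ to 3′ on the strand that carries it, and flanks are shorter where an exon is annotated. The 10 element-bearing member sites with the highest WT +Leu scores are given first, to show how the element looks at the strongest members.
Rbm20, chr19:53732107-53732154, plus strand: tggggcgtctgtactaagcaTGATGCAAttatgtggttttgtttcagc
9030204H09Rik, chr2:35831515-35831562, minus strand: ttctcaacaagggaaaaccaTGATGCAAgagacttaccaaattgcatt
Clic4, chr4:135271649-135271696, minus strand: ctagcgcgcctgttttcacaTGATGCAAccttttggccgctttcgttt
Madd, chr2:91172080-91172127, minus strand: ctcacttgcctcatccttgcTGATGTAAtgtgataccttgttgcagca
Crispld2, chr8:120004610-120004657, plus strand: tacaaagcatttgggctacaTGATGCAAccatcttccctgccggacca
Slit3, chr11:35156830-35156877, minus strand: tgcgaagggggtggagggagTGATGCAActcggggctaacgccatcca
Cars, chr7:143600046-143600073, plus strand: ttccagaatcTGATGCAAccgcggcgcc
Acvr2a, chr2:48520055-48520102, minus strand: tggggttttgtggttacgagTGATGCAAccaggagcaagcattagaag
Lsm14a, chr7:34390954-34390981, minus strand: gccccaaggaTGATGCAAacagtgtcta
Frmd4a, chr2:4477521-4477568, minus strand: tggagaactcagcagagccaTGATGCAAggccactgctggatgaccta

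The next 10 are the elements at member sites near genes of amino acid metabolism, tRNA charging, mTORC1 signaling, bZIP factors and secreted stress factors, whose scores are described further on.
Gars, chr6:55038930-55038977, plus strand: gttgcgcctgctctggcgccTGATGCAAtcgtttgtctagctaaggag
Fgf21, chr7:45616490-45616537, plus strand: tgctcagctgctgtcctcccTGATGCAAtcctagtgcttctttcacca
Phgdh, chr3:98339199-98339246, minus strand: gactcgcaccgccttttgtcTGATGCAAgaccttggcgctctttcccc
Nfe2l1, chr11:96822830-96822877, plus strand: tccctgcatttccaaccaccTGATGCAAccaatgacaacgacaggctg
Mthfd1l, chr10:3973739-3973786, plus strand: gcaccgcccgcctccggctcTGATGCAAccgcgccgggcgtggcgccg
Sesn2, chr4:132509913-132509960, plus strand: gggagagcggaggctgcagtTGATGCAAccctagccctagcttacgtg
Jdp2, chr12:85599363-85599410, plus strand: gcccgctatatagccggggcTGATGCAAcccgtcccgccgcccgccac
Bcat1, chr6:145076027-145076054, minus strand: cagtcgctgcTGATGCAAtccgcagcgg
Eprs, chr1:185363260-185363287, minus strand: acccacgcgcTGATGCAAcccgcgcggg
Nfil3, chr13:52976874-52976921, minus strand: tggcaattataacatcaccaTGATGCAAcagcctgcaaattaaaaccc

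The printed sites were chosen for holding the element, so a shared 8-base core follows from the choice. Some of the strongest members, such as those near Ddit4 and Gpt2, held none within 50 bp and are not shown. Among those shown, TGATGCAA lay in an intron of Rbm20, which encodes a splicing regulator, and at the start of Cars, the cysteinyl-tRNA synthetase gene. It also lay upstream of Fgf21, which encodes a secreted metabolic hormone. The flanks of these windows differed from each other. Of the 20 elements shown, Madd alone carried T in place of C as the sixth letter.

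TGATGCAA was found within 50 bp of the center at 76 of the 227 member sites on assembled chromosomes (33.5%, 27.7 to 39.8). In equally long windows placed 1 kb upstream and downstream it occurred in 0 of 454, which allows a share of up to 0.661% (Wilson limit 0.839%). The element was rare at WT +Leu peaks without a WT -Leu partner (15 of 4537, 0.331%), so the share at member sites was higher by 33.1 percentage points (27.3 to 39.5). It was also less common at WT -Leu peaks without a WT +Leu partner (310 of 6059, 5.12%), with a difference of 28.4 points (22.5 to 34.8). Peaks without a partner had lower scores, with medians of 29 (+Leu) and 30 (-Leu) against 46 and 115 at members. Neither difference was taken within bands of score, so a part played by peak strength was not tested. Within 150 bp of the center, 44.1% of member sites held it (37.7 to 50.6), against 294 of 32851 RefSeq promoter windows of about that length in the GRCm38.p6 assembly (0.895%).

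**Figure D1:**
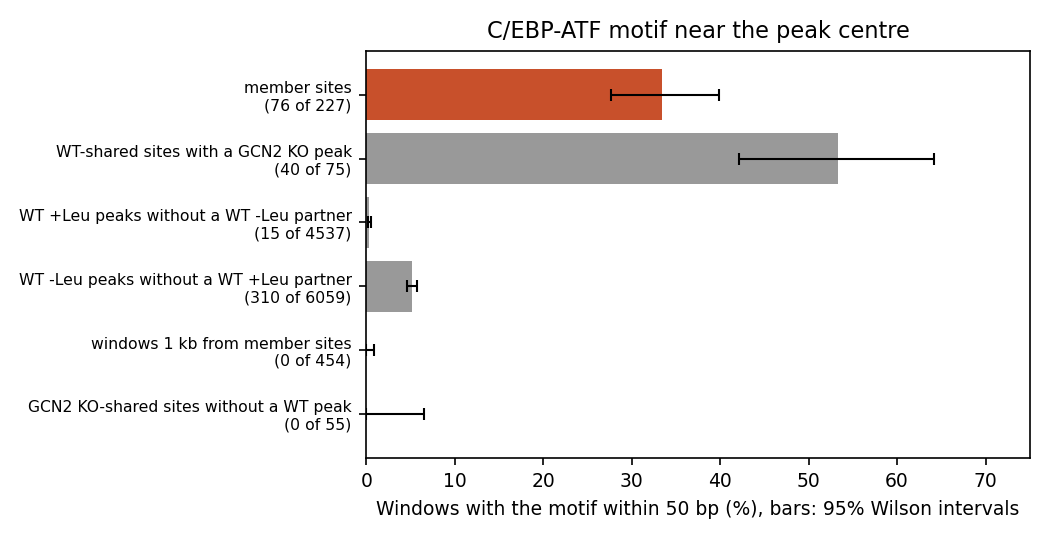
Share of windows (%) that hold TGATGCAA (both strands searched) 50 bp or less from the center, with 95% Wilson intervals, for member sites, the other classes of WT peaks, windows 1 kb from member sites, and GCN2 KO-shared sites without a WT peak. Member sites (33.5%) lie far above the peaks found in a single WT list and below the WT-shared sites with a GCN2 KO peak (53.3%). The classes of peaks also differ in score.

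WT-shared sites that kept a GCN2 KO peak held TGATGCAA more often, at 40 of 75 (53.3%, 42.2 to 64.2). The share at member sites was lower by 19.9 points, with an interval of the difference from -32.2 to -6.99. With any base as the sixth letter (TGATGNAA), the shares were 41.4% and 69.3%. This gap moved with peak strength. When the difference was taken within 4 bands of the WT +Leu score and pooled, an alternative chosen after seeing the data, it was -7.42 points (-21.4 to 6.58). Within 4 bands of the WT -Leu score it was 0.687 points (-12.5 to 13.9). Within these bands no difference in the element between member sites and those with a GCN2 KO peak was detectable at these numbers of sites. The bands were wide and do not hold equal scores. The highest WT +Leu band ran from 108 to 1499, while members reached at most 320. In it the shares were 46.7% and 62.8%, a difference of -16.1 points (-37 to 6.65). The lowest bands held only 7 (WT +Leu score) and 3 (WT -Leu score) sites with a GCN2 KO peak.

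Among member sites the element was tied to score in the same way. In the quartile with the lowest WT +Leu scores (13 to 30) 5.56% held it, and in the highest quartile (84 to 320) 51.9% did. For the WT -Leu score, the share was 1.52% in the lowest quartile (15 to 38) and 56.1% in the highest (315 to 1340).

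Of the 94 member sites with TGATGNAA within 50 bp, 1 element per site was read, TGATGCAA where present and otherwise the one nearest to the center, and its sixth letter was C in 76, A in 8, T in 8 and G in 2. The letter just after the element was T in 41.5% and C in 34.0%, and A in 5.32%. Just before the element it was C in 54.3% and T in 3.19%. At the 52 elements of WT-shared sites with a GCN2 KO peak, the letter just after was C in 44.2% and T in 38.5%, and the letter just before was C in 57.7% and T in 0 of 52.

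Other elements were scarcer. TGATGAAA, the form at the asparagine synthetase gene Asns, lay within 50 bp of 10 member centers (4.41%, 2.41 to 7.92), against 0.661% of the neighboring windows. WT-shared sites with a GCN2 KO peak held it more often, at 14.7% (8.39 to 24.4). The AP-1 element TGACTCA was found at 10 member sites (4.41%), against 1.32% of neighboring windows, 1.87% of WT +Leu peaks without a partner and 10.7% of WT-shared sites with a GCN2 KO peak. The CRE TGACGTCA and the C/EBP palindrome TTGCGCAA were found at 0 of 227 member sites, which allows up to 1.32% (Wilson limit 1.66%). CCAAT, the NF-Y letters, was found at 12.8% of member sites and 11.5% of neighboring windows.

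The element lay close to the summit. At the 100 member sites with TGATGCAA within 150 bp of the WT +Leu center, its middle was a median of 17.5 bp from the WT +Leu center (quartiles 8.5 and 45.5) and 11.5 bp from the WT -Leu center (5.5 and 30.5). The -Leu center was the nearer of the pair at 63 sites and the +Leu center at 35. At the 43 such sites with a GCN2 KO peak, both medians were 11.5 bp.

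**Figure D2:**
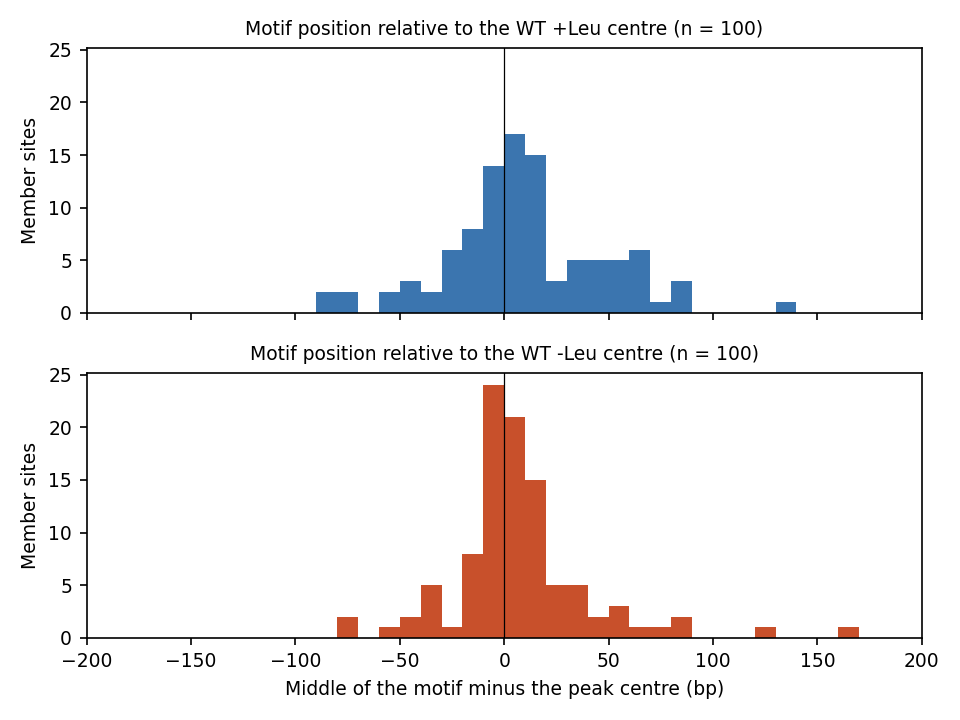
Number of member sites (vertical axis) by the distance in bp from the peak center to the middle of TGATGCAA, for the WT +Leu center (top) and the WT -Leu center (bottom) of the same 100 sites. Both pile up around 0, with a median distance of 17.5 bp for the +Leu and 11.5 bp for the -Leu center.

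Scores of the member sites spanned a wide range in both lists. The WT +Leu score had a median of 46 (quartiles 30 and 83, range 13 to 320) and the WT -Leu score a median of 115 (quartiles 38 and 312, range 15 to 1340). The score was higher without leucine at 177 members, equal at 8 and lower at 43. That is 77.6% higher, read against 81.8% for all 308 WT-shared sites, members included, and 93.8% for the 80 with a GCN2 KO peak. A WT -Leu score at least 2 times the WT +Leu score was listed at 123 members (53.9%), against 58.4% of all WT-shared sites. Among sites with a GCN2 KO peak it was 71.2%. The median ratio was 2.16 at members and 2.69 at sites with a GCN2 KO peak. The rise did not hold for rank, since by percentile within its own list the site stood higher without leucine at 114 members and lower at 114. WT-shared sites with a GCN2 KO peak had higher scores, with medians of 118 with and 448 without leucine.

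Members with TGATGCAA near the center differed in score from those without a TGATGNAA element. The 76 with it had a median WT +Leu score of 70, a median WT -Leu score of 248 and a median ratio of 3.98, and the score was higher without leucine at 73 of them. The 133 without any TGATGNAA had medians of 34 and 45 and a median ratio of 1.56, and 89 of them (66.9%) had the higher score without leucine. Centers of the pair of WT peaks were a median of 13 bp apart in the first group and 58 bp in the second. Scores entered the choice of members through the peak calls, so these are descriptions without a test.

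**Figure D3:**
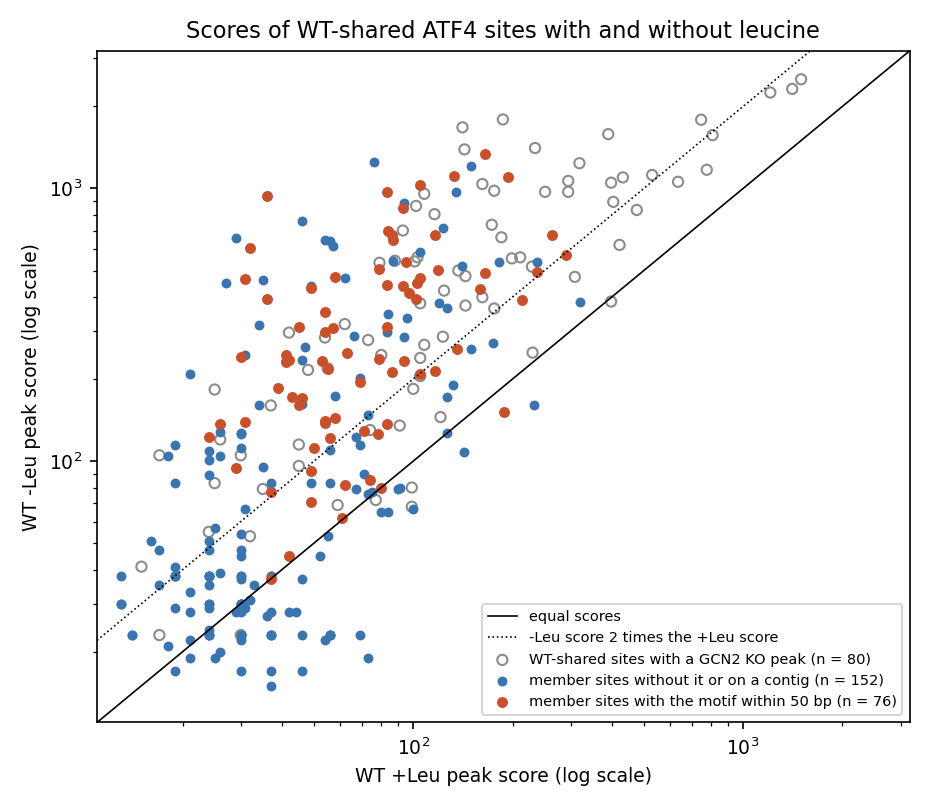
WT +Leu (horizontal) and WT -Leu (vertical) peak scores on log scales, each point 1 WT-shared site, with the lines of equal score and of a 2-fold higher -Leu score. Members with the element (76 points, orange) lie mostly above the line of equal scores, the other members (152, blue, including 1 on an unplaced contig) reach down to the lowest scores, and sites with a GCN2 KO peak (80, open) extend to higher scores.

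The share of WT-shared sites that were members fell with the score. The rule itself used the peak calls of all lists, so this share is a description and not a test. It was 88.9% in the lowest band of WT +Leu scores (13 to 30) and 41.1% in the highest (108 to 1499). By WT -Leu score it was 96.2% in the lowest band (15 to 47) and 48.1% in the highest (468 to 2515). Of the 80 sites with a GCN2 KO peak, 31 had a peak in both GCN2 KO lists, 35 in +Leu alone and 14 in -Leu alone. Their GCN2 KO +Leu scores had a median of 60.5 and their GCN2 KO -Leu scores a median of 59.

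Most member sites were distal. By the deposited annotation, 102 lay in introns, 88 between genes, 13 in promoters, 11 in exons, 3 in 5′ UTRs, 3 in 3′ UTRs, 3 at transcription ends and 4 in non-coding transcripts, of 227 on assembled chromosomes. A transcription start site (TSS) was within 5 kb of 65 members (28.6%, 23.1 to 34.8), against 58.7% of WT-shared sites with a GCN2 KO peak, a difference of -30.0 points (-41.8 to -17.1). Within the same wide bands of score, chosen after seeing the data, it was -24.6 points (-38.6 to -10.5) for the WT +Leu score. For the WT -Leu score it was -22.1 points (-35.6 to -8.66). Both intervals lay below 0, but the lowest bands held few sites with a GCN2 KO peak. A contrast with the banded difference in the element was not tested. Promoters, annotated as such or within 1 kb of a TSS, held 13.7% of members (9.79 to 18.7) and 45.3% of sites with a GCN2 KO peak, a difference of -31.7 points (-43.5 to -19.8). WT +Leu peaks without a partner were farther from genes than members, with 15.5% within 5 kb of a TSS (difference 13.2 points, 7.57 to 19.4).

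At the other end, 26.9% of members were over 50 kb from a TSS, against 13.3% of sites with a GCN2 KO peak (difference 13.5 points, 2.64 to 22.1). The center lay in an annotated repeat at 18.1% of members and 6.67% of sites with a GCN2 KO peak (difference 11.4 points, 2.23 to 18.1). Against WT +Leu peaks without a partner both differences went the other way, at -8.33 points (-13.9 to -2.06) for sites over 50 kb from a TSS and -8.10 points (-12.7 to -2.44) for repeats. Of the 41 members in repeats, 13 were in LTR elements, 12 in SINEs and 9 in LINEs, and 9 of the 41 held TGATGCAA near the center. The site near Lsm14a, the gene of an RNA-binding protein of mRNA decay bodies, was one of them and lay in an L2a LINE. Median GC content was 52.5% (quartiles 49.5 and 55.8).

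**Figure D4:**
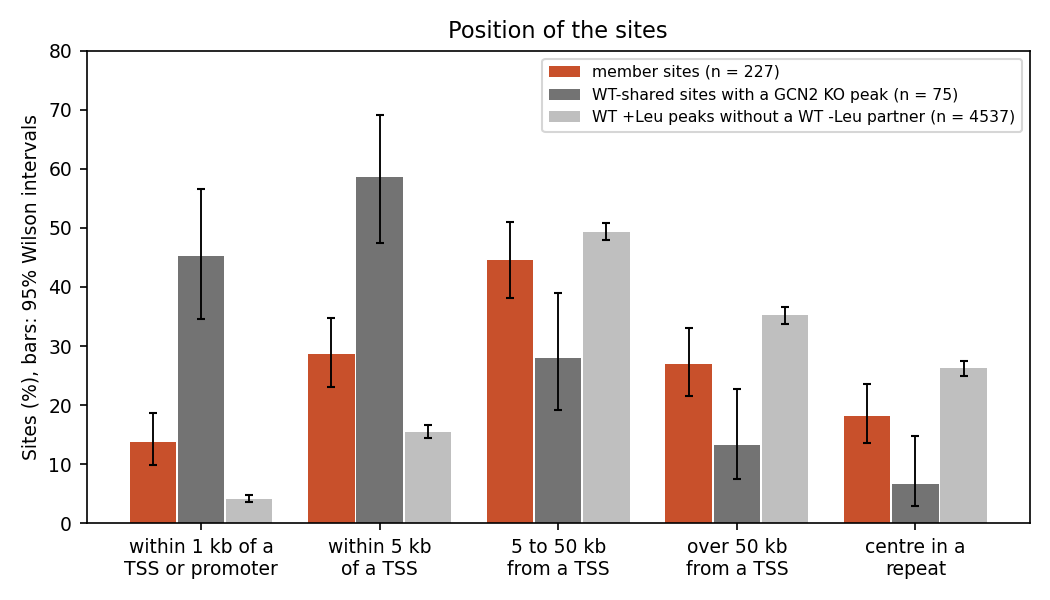
Share of sites (%, with 95% Wilson intervals) by distance to the nearest TSS, and with the center in an annotated repeat, for member sites, WT-shared sites with a GCN2 KO peak and WT +Leu peaks without a WT -Leu partner (assembled chromosomes). Within 5 kb of a TSS lay 28.6% of member sites, between 58.7% and 15.5% for the other classes.

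The nearest GCN2 KO peak was a median of 95.7 kb away from a member, and 32 members had one within 10 kb, 18 within 5 kb and 6 within 1 kb. The rule kept such peaks more than 300 bp from members. The same counts over all WT +Leu peaks are not given, so nothing is read from them. The sites at the edges of the rule mostly had low scores. The members farthest from their WT -Leu partner were near Lppr2 (290 bp, scores 24 and 30 with and without leucine) and Atp13a1 (292 bp, scores 30 and 47), and sites near Gm11213 and Susd4 fell outside at 324 and 330 bp (scores 36 and 23, and 30 and 23). The members closest to a GCN2 KO peak were near Glp1r (375 bp, scores 30 and 45) and Sfi1 (621 bp, scores 25 and 57). Another site near Sfi1 fell outside with a GCN2 KO -Leu peak 202 bp away (scores 121 and 145), as did a site near Pms2 with a GCN2 KO +Leu peak at 293 bp (scores 30 and 23).

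Strong members near a TSS were headed by Ddit4, whose product REDD1 inhibits mTORC1. Its site (chr10:59952667-59952967), 1047 bp upstream of the TSS, scored 320 with and 384 without leucine and ranked 16 in the WT +Leu list. TGATGCAA was not found within 150 bp of its WT +Leu center, though TGATGNAA was. The site in the promoter of Gpt2 (chr8:85492117-85492417), the gene of a mitochondrial alanine aminotransferase, scored 238 with and 536 without leucine. Clic4, which encodes a chloride channel protein, had an intronic site that scored 238 and 494. The Txndc12 promoter site (chr4:108833998-108834298), at the gene of an endoplasmic reticulum thioredoxin-like protein, scored 150 with and 1206 without leucine, the highest -Leu score of a member within 5 kb of a TSS. At Txndc12 the middle of TGATGCAA was 48.5 bp from the WT +Leu center, so that the element reached past the window of 50 bp, and 7.5 bp from the WT -Leu center. The Lsm14a site scored 165 and 491.

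Of the other strong members near a TSS, the site in the first intron of Xpot, the gene of the nuclear export receptor for tRNAs, scored 127 with and 365 without leucine and carried TGATGAAA. Rin1, a regulator of Ras and Rab proteins, had a site that scored 116 and 677, and Uhrf1bp1 one that scored 116 and 214. The site in the non-coding transcript Gm15850 scored 105 and 208. Soat2, which encodes a cholesterol-esterifying enzyme, had a site 394 bp inside the gene that scored 93 and 849. A site 4832 bp upstream of Eif3a, the gene of a translation initiation factor subunit, lay in a DNA transposon and scored 93 and 437. All sites named in this paragraph scored higher without leucine, and all but the Xpot site held TGATGCAA near the center. Of the strong members near a TSS described further on, Gars and Fgf21 did both. Cars (188 with and 151 without leucine) and Vegfa (100 and 67) scored lower without leucine, and Vegfa had no TGATGCAA within 150 bp. Over all members, 77.6% scored higher without leucine and 33.5% held TGATGCAA within 50 bp.

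Members far from a TSS reached similar scores. The site in an intron of Rbm20, 54823 bp from its TSS, scored 291 with and 569 without leucine, and that in an intron of 9030204H09Rik scored 264 and 677. An intronic site of Madd, which encodes a regulator of Rab proteins, scored 232 with and 160 without leucine and was thus lower without it. The Crispld2 site scored 213 and 390, and that in an intron of Slit3, the gene of a secreted guidance protein, scored 194 and 1101. The site 15072 bp upstream of Rere, a transcriptional corepressor gene, scored 182 and 537, and that in an intron of Chst9 174 and 271. The site nearest to Acvr2a, an activin receptor gene, was 294018 bp away from its TSS and had the highest WT -Leu score of all members, 165 with and 1340 without leucine. The largest ratio, 26, was that of an intronic site of Gpc6, a glypican gene named here after its values were seen, which scored 36 and 937.

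Members at the extremes of the ratio are likewise named after their values were seen. The WT -Leu score was at least 10 times the WT +Leu score at 13 members, of which 5 held TGATGCAA and 4 another TGATGNAA within 50 bp of the WT +Leu center. Around the WT -Leu center, 10 of the 13 held TGATGNAA. Beside Gpc6 and Nfil3 they included a distal site near Gap43, the gene of a neuronal growth protein (76 with and 1251 without leucine), and an intronic site of the cytochrome b5 reductase gene Cyb5r1 (27 and 450). The WT -Leu score was at most 0.5 times the WT +Leu score at 10 members, and 0 of these held TGATGNAA within 50 bp of the WT +Leu center, but 2 did around the WT -Leu center, among them Pknox2. Their scores were low without leucine, as at Ankrd11 (73 with and 19 without, in a CA simple repeat), Pknox2 (69 and 23) and Lrp1 (37 and 15).

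Genes were then grouped by function. Member sites lay within 5 kb of 63 of the 776 genes that had any WT +Leu peak within that distance (8.12%), and 20 of the 63 belonged to the lists described next. The lists were compiled with earlier results of these data known, so their counts are given as a description. The total of listed genes among all 776 is not given, so nothing is read from the 20.

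Aminoacyl-tRNA synthetases, which charge tRNAs, had a WT +Leu peak at 12 of 39 genes. A member site was found at Cars, Gars, Eprs, Tars and Vars, and a site with a GCN2 KO peak at 8 genes. Cars, for cysteine, scored 188 with and 151 without leucine, and its peak was the only one of the 5 that was lower without leucine. Gars, for glycine, scored 119 and 503 at a member site 947 bp inside the gene. Eprs, for glutamate and proline, scored 46 and 170. Tars, for threonine, scored 30 and 127, and Vars, for valine, 30 and 126. Gars was the only gene with both kinds of site within 5 kb of a TSS. Its second WT-shared site, 8 bp from the TSS, scored 88 with and 543 without leucine in WT and 44 in GCN2 KO +Leu, with no peak in GCN2 KO -Leu. The member site of Gars was 1066 bp from that GCN2 KO +Leu peak.

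Enzymes of amino acid synthesis and one-carbon metabolism had a WT +Leu peak at 10 of 24 genes, with a member site at 5 and a site with a GCN2 KO peak at 4, which were Asns, Mthfd2, Psat1 and Shmt2. Beside Gpt2, members were found at Phgdh, the first enzyme of serine synthesis (86 with and 212 without leucine), and at Mthfd1l (58 and 144) and Aldh1l2 (58 and 173), both mitochondrial folate enzymes. Bcat1, a cytosolic aminotransferase for branched-chain amino acids such as leucine, scored 50 and 112, with TGATGCAA in its first exon. All 5 scored higher without leucine. Amino acid transporters had a WT +Leu peak within 5 kb at 8 of 26 genes. A member site within that distance was found only at Slc6a9, a glycine transporter (69 and 115, in the 5′ UTR). Slc1a4, Slc38a2 and Slc7a1 had a site with a GCN2 KO peak. Slc7a1 also had a member site beyond that distance, 19325 bp upstream of its TSS (57 with and 309 without leucine).

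In the mTORC1 list, 4 of 28 genes had a WT +Leu peak, and 3 of these had a member site. Besides Ddit4, Sesn2, whose product relays leucine shortage to mTORC1, had a pair of member sites 4056 bp apart. The site in its first intron, 488 bp from the TSS, scored 54 with and 138 without leucine, and the site 3568 bp upstream scored 54 and 646. Larp1, which encodes a repressor of the translation of TOP mRNAs, had a promoter site 391 bp upstream of the TSS (chr11:58008523-58008823) that scored 80 with and 65 without leucine. The middle of TGATGCAA was 83.5 bp from the WT +Leu center at Larp1 and 34.5 bp from the WT -Leu center. The site at the fourth gene, Eif4ebp1, which encodes the translation repressor 4E-BP1, had a GCN2 KO +Leu peak.

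Over all 776 genes with a WT +Leu peak within 5 kb, 43 (5.54%) had a WT-shared site with a GCN2 KO peak. In the integrated stress response list a WT +Leu peak was found at 11 of 20 genes, a site with a GCN2 KO peak at 8, among them Chac1, Atf5, Ddit3 and Trib3, and a member site only at Bhlha15, a secretory-cell transcription factor gene (37 and 38). Of the bZIP factors, 5 of 40 genes had a WT +Leu peak and 3 a member site. Nfe2l1, a regulator of proteasome genes, scored 83 with and 974 without leucine, Jdp2, which pairs with Jun proteins, 53 and 233, and Nfil3, a transcriptional repressor, 32 and 606. No gene of this bZIP list had a WT-shared site with a GCN2 KO peak within 5 kb, but Atf5, Ddit3 and Cebpg, bZIP genes kept in the stress response list, each had one. Both secreted factors with a member site differed in direction, as Fgf21 scored 94 with and 233 without leucine and Vegfa, the angiogenic growth factor, 100 and 67. The lists for autophagy and lysosome (20 genes) and fibroblast matrix (16 genes) had 0 genes with a WT +Leu peak within 5 kb.

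**Figure D5:**
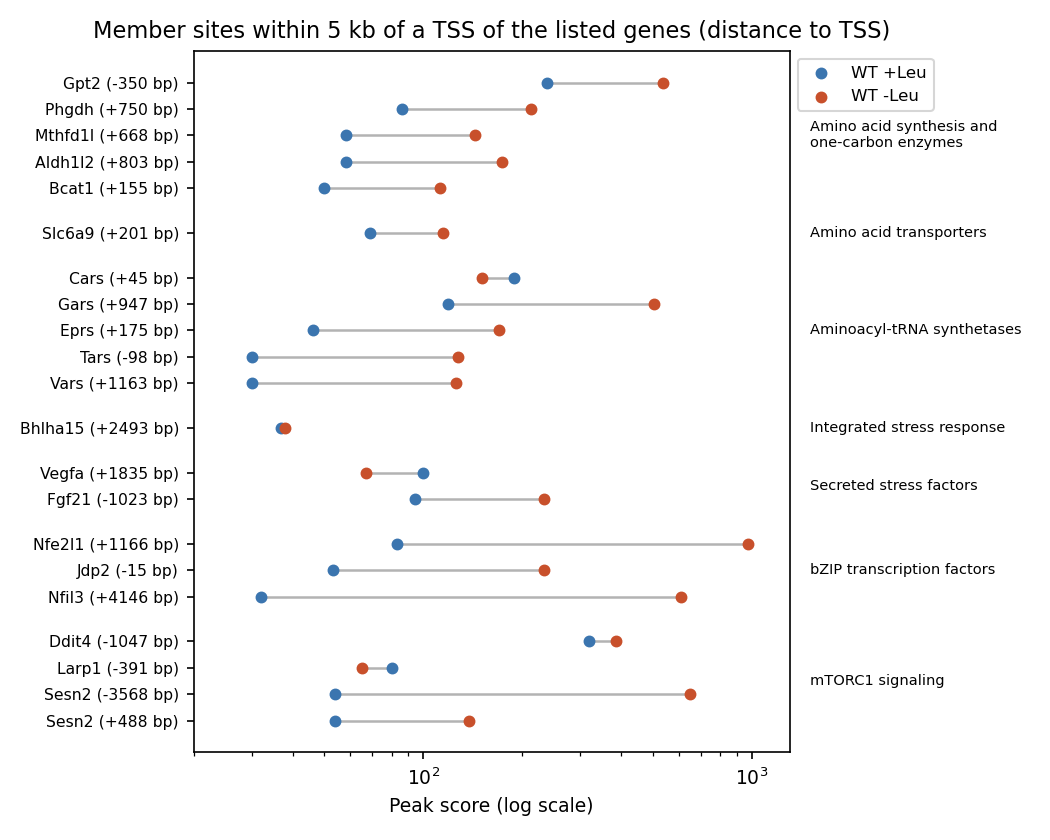
Peak scores (log scale) with (blue) and without (orange) leucine at the 21 member sites within 5 kb of a TSS of the listed genes, grouped by list, with the signed distance to the TSS in brackets. Scores were lower without leucine at Cars, Vegfa and Larp1, and higher at the other sites shown.

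Some of the genes had a GCN2 KO peak elsewhere. Of the 63 genes with a member site within 5 kb of a TSS, 3 (Bhlha15, Gars and Glp1r) had a GCN2 KO +Leu peak elsewhere within 5 kb, with scores of 20 at Bhlha15, 44 at Gars and 20 at Glp1r, and 0 had a GCN2 KO -Leu peak there. That is 4.76% with any GCN2 KO peak, beside 118 of all 776 genes with a WT +Leu peak within 5 kb (15.2%) and 75 of the 733 without a WT-shared site with a GCN2 KO peak (10.2%). The rule itself kept GCN2 KO peaks away from member sites, so nothing is read from this difference.

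Some members lay near each other, with 11 neighboring pairs within 50 kb. No such count over all WT +Leu peaks is given, so nothing is read from this number. Beside the Sesn2 pair, members named here after their values were seen were a pair in Foxp1, a forkhead factor gene, 24280 bp apart, which scored 97 and 105 with leucine and 413 and 584 without it. A cluster of 4 members at 1600014C10Rik scored 21 to 46 with leucine, and each of them had a GCN2 KO peak within 5 kb.

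The reverse set was smaller. GCN2 KO cells shared 98 sites between +Leu and -Leu, of which 59 had no WT peak within 300 bp (60.2%, 50.3 to 69.3). Their median GCN2 KO +Leu score was 30, and TGATGCAA was found within 50 bp of the center at 0 of 55 on assembled chromosomes, which allows up to 5.45% (Wilson limit 6.53%). At member sites the share was 33.5%. At the members with the lowest WT +Leu scores (13 to 30) it was 5.56%, which is below that Wilson limit. At members with WT +Leu scores of 31 to 46 the share was 37.2% (24.4 to 52.1). Scores were not normalized between libraries, so these bands do not match the reverse set in peak strength. A difference in the element between the reverse set and members of like strength was not tested.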

How the data were processed

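ATF4 ChIP-seq libraries of WT and GCN2 KO MEFs, +Leu and -Leu, were analysed as 4 annotated peak lists, 1 per condition, with groups taken from the sample labels. The authors trimmed the reads, aligned them to mm10 with BWA 0.7.12, called peaks with MACS2 2.1.0 against input DNA of leucine-fed cells of the same genotype, and annotated windows of 301 bp with HOMER 4.7 (versions per the submitters' processing notes). The files the authors deposited hold a score per peak, how far (bp) the closest TSS lay, and GC and CpG contents, each a fraction of the window. The 2 input libraries were not analysed here, and the lists give no depth.

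Peaks were paired by center distance (300 bp), without any filter on score. The nearest partner was used. Sequence was read from GRCm38 after the deposited GC content was checked and matched the reference at 227 of 227 member sites on assembled chromosomes, and 1 member on a contig was left out of shares of sequence and position. Pooled differences within score bands are Mantel-Haenszel differences. Members and gene lists were chosen with earlier results of these data known. Named were the 15 members within 5 kb of a TSS and the 8 farther away with the highest WT +Leu scores, all members within 5 kb of a listed gene, and the sites at the edges of each distance limit. Printed elements follow the WT +Leu score, and elements of the listed genes were added. Alternatives were other distances, score minimums, motif windows and letters, partners and centers. Pairing, motif search and intervals were tested on simulated data. Software comprised samtools 1.23.1, pysam 0.24.0, scipy 1.17.1, matplotlib 3.10.9, pandas 2.3.3 and numpy 2.4.6 under Python 3.11.15.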

Additional observations from a re-analysis of the deposited data

How the results depend on the processing

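Of 52 alternatives, 39 left their result within its interval or on the same side of 0, or its count about as large. The number of member sites was 151 when each list was ranked by score down to the 2672 peaks of the shortest list. The share with TGATGCAA rose to 44.1% within 150 bp, to 41.4% for TGATGNAA and to 48.7% with a score of 30 or more in every list. With that minimum the difference from WT-shared sites with a GCN2 KO peak was -8.64 points (-22.6 to 6.04), it was -7.42 points within bands of the WT +Leu score, and it changed sign to 0.687 points within bands of the WT -Leu score. The bands were chosen after seeing the data. The share near a TSS was 13.7% within 1 kb, 39.2% within 10 kb and, within 5 kb, 36.1% with a score of 30 or more. Promoters by annotation alone held 5.73%. The median score ratio was 2.99 with a score of 30 or more, and by percentile rank 114 members stood higher without leucine. No paired analysis was possible because each condition had 1 library. Unknown depth limits every statement on absent peaks.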
